A study of Mus musculus with 9 samples.

Results

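The data concern 10 genes that carry the 2 main growth factor systems of blood and lymphatic vessels in mouse skin, taken by symbol from the 56859 genes of the deposited count table. They are the ligands Vegfa, Vegfc, Angpt1 and Angpt2, the receptors Flt1, Kdr, Flt4 and Tek, and the lymphatic markers Lyve1 and Prox1. Each symbol stood on 1 row, and all 10 were among the 18005 genes with enough counts to be tested. RNA sequencing was done on total RNA from the back skin of wild type Balb/c mice, 6 to 8 weeks of age, all shaved and kept free of specific pathogens. Vaseline was applied for 7 days in the first group and imiquimod (IMQ) for 7 days in the second, while the third received IMQ for 7 days and a bergapten gel for 2 days. Each group had 3 libraries. IMQ is a Toll-like receptor 7 agonist used as a cream to induce a psoriasis-like dermatitis in mice, and bergapten is a furanocoumarin made by plants. The labels name no group given IMQ and a gel without bergapten, so bergapten and its vehicle cannot be told apart.

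VEGF-A, the main growth factor for blood vessels, signals through VEGFR2, the product of Kdr. VEGFR1, the product of Flt1, binds VEGF-A more tightly but signals weakly, and its soluble form holds the ligand back from VEGFR2. VEGF-C acts through VEGFR3, the product of Flt4, and drives the growth of lymphatic vessels. Angiopoietin 1, made mostly by cells around the vessel, activates the receptor Tie2, the product of Tek, and keeps vessels quiescent, whereas angiopoietin 2, released by endothelial cells, often opposes it. Prox1 is the transcription factor that sets lymphatic endothelial identity, and Lyve1 is a hyaluronan receptor of lymphatic endothelium that is also found on a set of tissue macrophages. Widened and tortuous vessels of the upper dermis, with raised VEGF-A, are a known feature of psoriatic plaques.

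Sequencing gave 42017796 to 53491700 raw reads per library and 15855439 to 19862905 reads counted to genes, or 37.13 to 38.38 counts per 100 raw reads. The 10 genes had between 64 counts (Angpt1 in IMQ replicate 2) and 2016 counts (Vegfa) per library. Base quality (Q30) did not overlap between the groups, at 93.92% to 94.495% for the vaseline libraries, 95.32% to 95.515% for IMQ and 94.865% to 94.98% for bergapten. Ribosomal Rn18s took 1.794% of the counts in bergapten replicate 2 and 0.179% to 0.27% in the other libraries. The spread between libraries was wider in IMQ skin, with a mean variance of log2 CPM (the count relative to library size, scaled by TMM) of 0.238 against 0.1002 in vaseline and 0.1021 with bergapten. The part of these differences in the results below was not tested. The labels do not state that the libraries of a group came from separate animals, so the spread that p-values rest on may be technical.

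In IMQ-treated skin the receptor and ligand genes did not move together. Flt1 rose 1.66-fold and Angpt2 rose 1.51-fold, while Angpt1 fell 4.03-fold and Tek fell 1.35-fold. Vegfa itself stayed without a call, with a fold change near 1. Of the 10 genes, 2 rose and 2 fell (40.0%), beside 43.2% of all tested genes, of which 23.0% rose and 20.2% fell. The groups did not overlap for 2 genes that were higher in IMQ and 4 that were lower, where 26.9% and 25.4% of all tested genes did the same. These shares are near those of all genes. The median log2 fold change was -0.08 for the 10 genes and 0.03 for all tested genes. In a bulk tissue such as this, fewer cells of a type and less RNA per cell cannot be told apart.

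With bergapten on IMQ-treated skin, Flt1 fell 1.63-fold, to a level near that in vaseline, and Lyve1 fell 2.82-fold, to below that in vaseline. The call of Lyve1 was lost in 5 of 9 fits with 1 library left out, while that of Flt1 held in 9 of 9. The 10 genes thus included 2 that fell and 0 that rose by edgeR, where 4.83% of all tested genes were called, 2.18% rising and 2.65% falling. At an unadjusted p under 0.05, 6 of the 10 were lower and 0 higher, where 11.6% of all tested genes were lower. DESeq2 and limma voom each called 3 lower and 0 higher, where they called 5.39% and 3.03% of all tested genes lower. The groups did not overlap for 5 genes, all lower with bergapten, beside 13.2% of all tested genes that were lower without overlap. The median log2 fold change was -0.35 for the 10 genes and -0.01 for all tested genes. This comparison shares its IMQ libraries with the first.

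Against vaseline, skin given IMQ and bergapten had lower Vegfa, Tek, Angpt1 and Lyve1. These 4 genes fell and 0 rose by edgeR (40.0% called), where 40.4% of all tested genes were called, 20.9% rising and 19.5% falling. DESeq2 called 4 lower and 0 higher and limma voom 6 lower and 0 higher, where they called 21.0% and 25.5% of all tested genes lower. At an unadjusted p under 0.05 there were 5 lower and 0 higher, where 23.7% of all tested genes were lower. The groups did not overlap for 7 genes, all lower, beside 29.2% of all tested genes. This comparison shares its groups with both of the others.

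**Figure D1:**
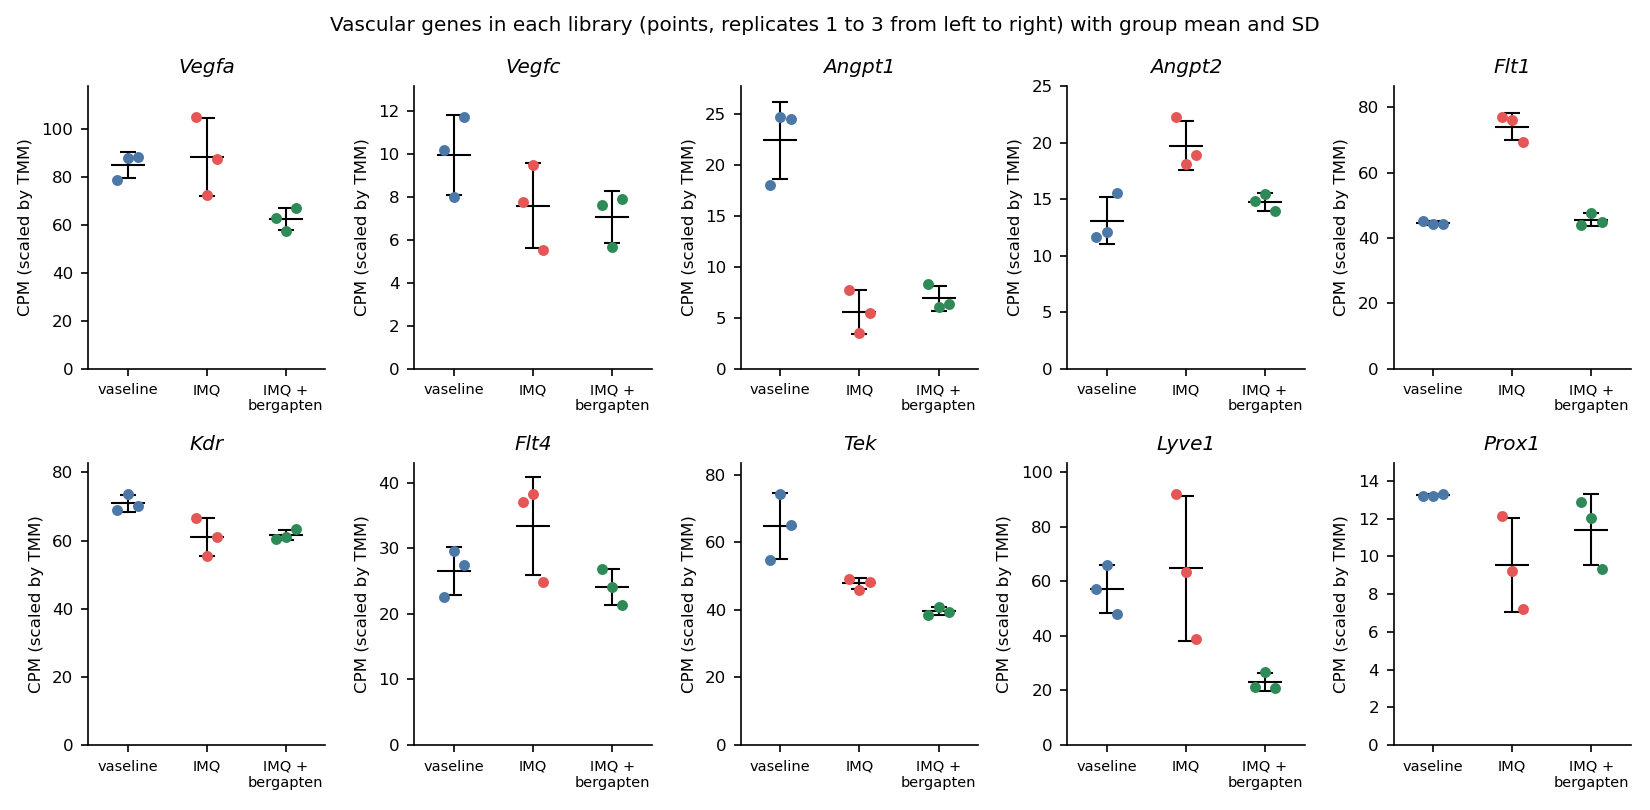
Levels of the 10 genes in CPM (counts per library size, scaled by TMM, y axes from 0) in the 3 groups. Points are single libraries, the horizontal bar is the group mean and the whiskers are 1 SD (n = 3). Flt1 in the IMQ libraries lies at 69.3 to 76.9 CPM, above all 6 other libraries, and Lyve1 with bergapten lies at 21.0 to 26.7 CPM, below all 6 others.

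Among the ligands, Vegfa, the main angiogenic factor, lay in the Ensembl gene ENSMUSG00000023951 on chromosome 17 (46327919 to 46343295, minus strand, GRCm39, as are all coordinates of genes here). It was measured at 78.8, 87.9 and 88.1 CPM in vaseline, 105, 72.3 and 87.5 CPM in IMQ, and 62.8, 57.4 and 66.8 CPM with bergapten. Vaseline and IMQ overlapped, while every bergapten library was below every other library. The IMQ against vaseline log2 fold change of Vegfa was 0.05 (SE 0.13, 95% interval -0.23 to 0.34, edgeR adjusted p = 0.756), and its sign depended on single libraries. Bergapten against IMQ gave -0.50 (SE 0.13, adjusted p = 0.053), just short of the threshold of 0.05. The same difference was called by DESeq2 (adjusted p = 0.011) and limma voom (0.0152), and by edgeR with RLE factors (0.0492), without a filter (0.0135) and without IMQ replicate 2 (0.00797), where the other 8 leave-one-out fits did not call it. Against vaseline, Vegfa fell 1.36-fold with bergapten (log2 -0.45, SE 0.13, adjusted p = 0.0183), a call lost without bergapten replicate 2 (0.057).

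Vegfc, the lymphatic growth factor (chromosome 8, 54530641 to 54640131, plus strand), had overlapping levels in vaseline and IMQ. It measured 10.2, 7.98 and 11.7 CPM in vaseline, 7.74, 9.49 and 5.54 CPM in IMQ, and 7.65, 5.67 and 7.90 CPM with bergapten. The IMQ libraries overlapped both other groups, and the bergapten libraries were below those of vaseline. No comparison of Vegfc passed the threshold by edgeR, and its log2 fold change was -0.39 for IMQ against vaseline (SE 0.23, adjusted p = 0.202). Bergapten against vaseline gave -0.50 (adjusted p = 0.12), which was called by limma voom (0.0301) and with only the groups compared (0.0458).

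Angpt1, the Tie2 agonist (chromosome 15, 42288119 to 42540373, minus strand), showed the widest change of the 10 genes after IMQ. Its values were 18.1, 24.7 and 24.6 CPM in vaseline, 7.74, 3.45 and 5.49 CPM in IMQ, and 8.30, 6.06 and 6.32 CPM with bergapten. Every vaseline library lay above all libraries that received IMQ, and both IMQ-treated groups overlapped each other. The fall against vaseline was -2.01 on the log2 scale in IMQ (SE 0.27, 95% interval -2.62 to -1.41, adjusted p = 0.00026). With bergapten it was -1.70 (SE 0.27, adjusted p = 0.000743), and bergapten against IMQ gave 0.31 (SE 0.27, interval -0.30 to 0.91, adjusted p = 0.549).

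Angpt2, the endothelial counterpart of Angpt1 (chromosome 8, 18740279 to 18791578, minus strand), moved the other way. It was measured at 11.7, 12.1 and 15.5 CPM in vaseline, 22.2, 18.1 and 18.9 CPM in IMQ, and 14.9, 15.5 and 13.9 CPM with bergapten. All IMQ libraries were above all others. Angpt2 rose in IMQ (log2 0.59, SE 0.14, adjusted p = 0.00714), and bergapten against IMQ gave -0.42 (SE 0.14, interval -0.74 to -0.11, adjusted p = 0.116). The gene is overlapped on the other strand by Mcph1, which had at most 383 counts in a library. Whether counting used strand is not given in the sources used here, and without it reads of both genes cannot be told apart in the shared stretch.

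The authors' FPKM values, which divide by gene length, allow levels of different genes to be set side by side. The ratio of Angpt2 to Angpt1 on the FPKM scale was 0.772, 0.586 and 0.756 in the vaseline libraries, 3.44, 6.28 and 4.12 in IMQ, and 2.14, 3.05 and 2.64 with bergapten. It was below 1 in every vaseline library and above 1 in every library that received IMQ, and no groups overlapped. The means were 0.705 ± 0.104, 4.61 ± 1.49 and 2.61 ± 0.454 (SD, n = 3).

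**Figure D2:**
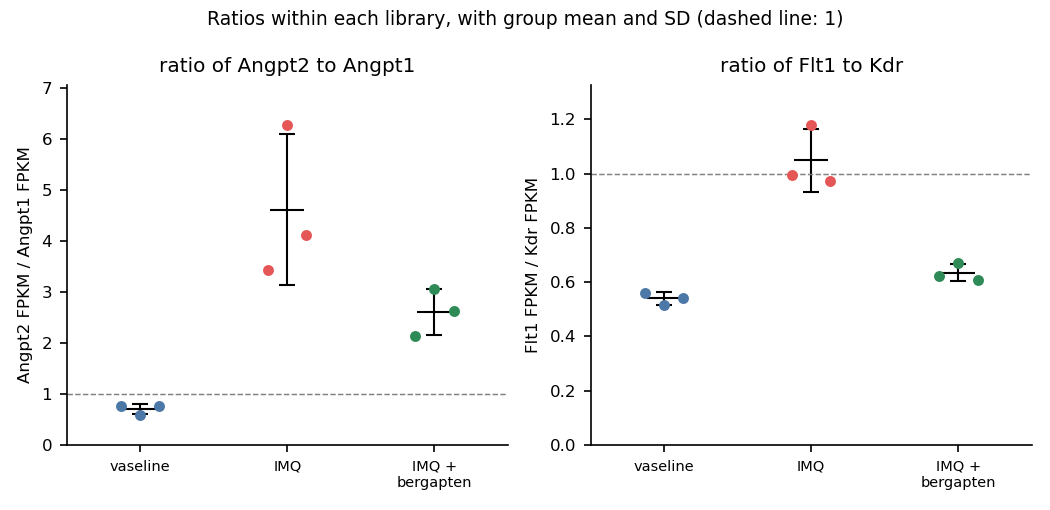
Ratio of Angpt2 to Angpt1 (left) and of Flt1 to Kdr (right) in each library, both from FPKM, with y axes from 0. Points are libraries, bars and whiskers are the group mean and SD (n = 3), and the dashed line marks 1. Both ratios were highest in the IMQ libraries, at 3.44 to 6.28 and 0.973 to 1.18.

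Among the receptors, Flt1 (VEGFR1, chromosome 5, 147498414 to 147662821, minus strand) and Kdr (VEGFR2, chromosome 5, 76093487 to 76139118, minus strand) went different ways in IMQ skin. Tek (Tie2, chromosome 4, 94627526 to 94763213, plus strand) fell. The part of cell types other than endothelium in the levels of these receptor genes was not tested. The 250 bases before the RefSeq start of each are shown, because all 3 code for receptors of endothelial cells and did not share a pattern. The sequences are from GRCm38.p6, the C57BL/6J reference, whereas the mice were Balb/c. Capitals mark a hypoxia response core (ACGTG or GCGTG on either strand) or a cAMP response element (TGACGTCA).
Flt1 (chr5:147726012-147726261, minus strand): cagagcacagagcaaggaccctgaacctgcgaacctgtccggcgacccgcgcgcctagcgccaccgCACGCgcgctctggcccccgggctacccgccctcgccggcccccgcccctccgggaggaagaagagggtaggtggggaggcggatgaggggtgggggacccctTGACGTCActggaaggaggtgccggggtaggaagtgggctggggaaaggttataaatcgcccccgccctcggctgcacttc
Kdr (chr5:75978456-75978705, minus strand): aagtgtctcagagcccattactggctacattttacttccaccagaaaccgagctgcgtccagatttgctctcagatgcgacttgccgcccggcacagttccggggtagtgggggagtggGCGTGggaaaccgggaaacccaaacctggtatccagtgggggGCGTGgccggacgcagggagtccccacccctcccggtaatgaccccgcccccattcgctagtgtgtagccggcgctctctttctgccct
Tek (chr4:94739039-94739288, plus strand): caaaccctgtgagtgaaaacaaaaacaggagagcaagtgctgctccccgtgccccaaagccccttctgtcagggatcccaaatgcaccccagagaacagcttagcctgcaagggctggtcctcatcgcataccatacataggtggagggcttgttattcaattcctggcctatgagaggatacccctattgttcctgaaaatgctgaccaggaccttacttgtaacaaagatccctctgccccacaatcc
The window of Flt1 held 1 hypoxia core and the only cAMP element of these 3, that of Kdr held 2 hypoxia cores, and that of Tek held neither motif. A hypoxia core was found in 38.6% of 32851 RefSeq promoter windows of this length and the cAMP element in 1.55%. The ETS core GGAA, searched on both strands and not overlapping the capitals, occurred 4 times in Flt1, 4 times in Kdr and 2 times in Tek, and in 93.4% of all windows. These matches describe letters in the reference and are no evidence of binding.

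Flt1 was measured at 45.1, 44.2 and 44.3 CPM in vaseline, 76.9, 76.2 and 69.3 CPM in IMQ, and 44.0, 47.7 and 45.0 CPM with bergapten. The IMQ libraries stood clear of all others, and the bergapten libraries overlapped those of vaseline. Flt1 rose in IMQ (log2 0.74, SE 0.08, 95% interval 0.56 to 0.91, edgeR adjusted p = 5.11e-05) and fell with bergapten against IMQ (log2 -0.70, SE 0.08, interval -0.87 to -0.53, adjusted p = 0.00242). Against vaseline the bergapten value was 0.03 (SE 0.08, interval -0.14 to 0.20, adjusted p = 0.766), so a remaining difference of up to 0.20 on the log2 scale lay within the interval. Both calls held in 9 of 9 fits with 1 library left out and in 7 of 7 other settings.

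Kdr had 69.0, 73.7 and 70.0 CPM in vaseline, 66.5, 55.4 and 61.2 CPM in IMQ, and 60.5, 61.0 and 63.4 CPM with bergapten. Every vaseline library was above every IMQ-treated one, by a small margin. The log2 fold change in IMQ was -0.22 (SE 0.08, adjusted p = 0.0591), and bergapten against IMQ gave 0.01 (SE 0.08, interval -0.17 to 0.20, adjusted p = 0.941). The first of these was called with RLE factors (adjusted p = 0.0475), by DESeq2 (0.0479), with a filter at a mean of 1 CPM (0.0459) and without IMQ replicate 1 (0.0187). Bergapten against vaseline gave -0.20 (SE 0.08, adjusted p = 0.0788), which was called by limma voom (0.0274), with only the groups compared (0.0295), and without IMQ replicate 1 (0.0353) or 2 (0.0346).

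The ratio of Flt1 to Kdr by FPKM was 0.562, 0.515 and 0.543 with vaseline, 0.993, 1.18 and 0.973 after IMQ, and 0.624, 0.672 and 0.610 with bergapten. No groups overlapped in this ratio. The part of leukocytes and other cell types in it was not tested.

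Tek read 54.7, 74.3 and 65.2 CPM in vaseline, 49.1, 45.9 and 48.3 CPM in IMQ, and 38.5, 40.9 and 39.5 CPM with bergapten. The 3 groups formed a descending order without overlap. Tek fell in IMQ (log2 -0.44, SE 0.11, adjusted p = 0.00815) and, with bergapten, 1.63-fold against vaseline (log2 -0.71, SE 0.11, adjusted p = 0.000617). The step from IMQ to bergapten did not pass, at -0.27 (SE 0.11, interval -0.51 to -0.03, adjusted p = 0.179). Both calls of Tek held in 9 of 9 fits with 1 library left out.

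Flt4 (VEGFR3, chromosome 11, 49500090 to 49543566, plus strand), the VEGF-C receptor, had 22.5, 29.6 and 27.5 CPM in vaseline, 37.1, 38.3 and 24.9 CPM in IMQ, and 26.9, 24.2 and 21.4 CPM with bergapten. IMQ replicate 3 lay among the other groups while the other IMQ libraries were above them. Flt4 was not called in IMQ (log2 0.33, SE 0.18, adjusted p = 0.155) or with bergapten against IMQ (-0.47, SE 0.18, adjusted p = 0.156). Without IMQ replicate 3 the adjusted p was 0.0213 and 0.0209.

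**Figure D3:**
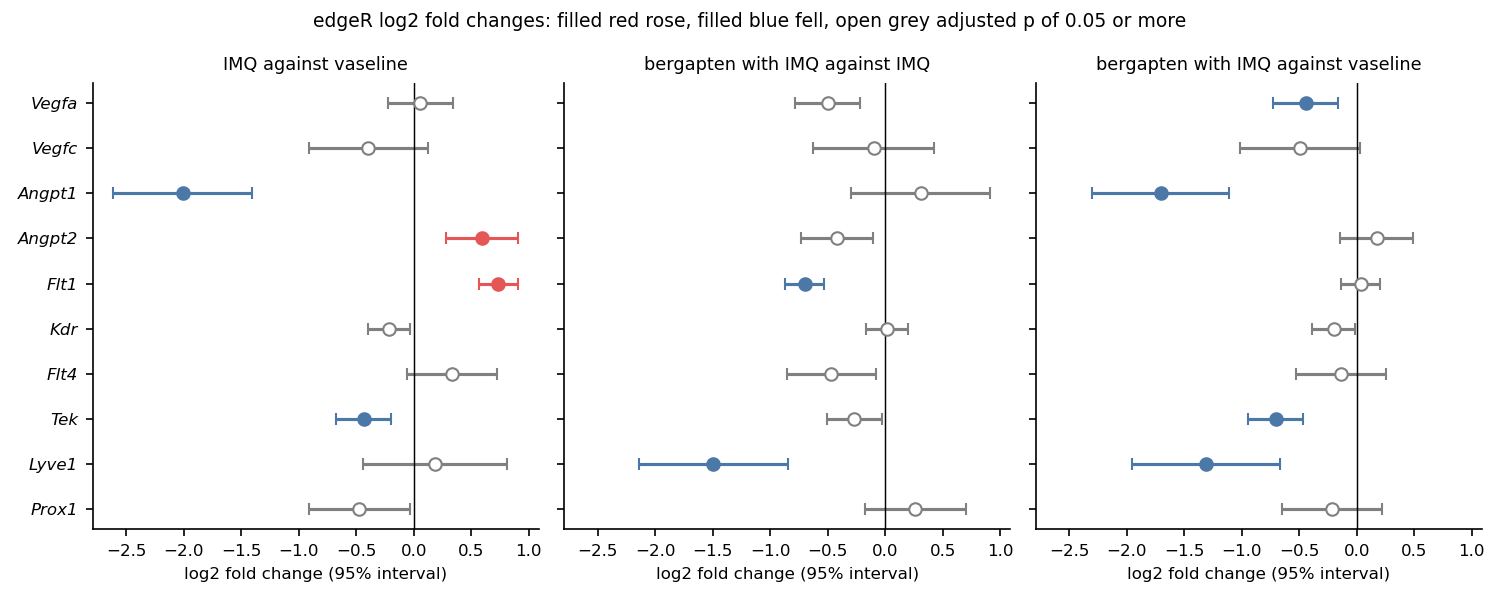
Log2 fold changes by edgeR (x axis) with 95% intervals for the 10 genes in the 3 comparisons. Filled red points rose, filled blue points fell and open grey points had an adjusted p of 0.05 or more. Angpt1 lies farthest from 0 in the first panel (-2.01) and Lyve1 in the second (-1.49).

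Among the lymphatic markers, Lyve1 (chromosome 7, 110449814 to 110462446, minus strand) was measured at 57.2, 65.9 and 48.2 CPM in vaseline, 92.0, 63.5 and 38.9 CPM in IMQ, and 21.2, 26.7 and 21.0 CPM with bergapten. The IMQ libraries spread on both sides of vaseline, and all bergapten libraries were below all others. IMQ against vaseline gave a log2 fold change of 0.18 (SE 0.28, interval -0.45 to 0.81, adjusted p = 0.628). Lyve1 fell with bergapten against IMQ (log2 -1.49, SE 0.28, interval -2.14 to -0.85, adjusted p = 0.0274). This call was lost in 5 of 9 leave-one-out fits, namely those without replicate 1 of vaseline (adjusted p = 0.0521), replicate 2 of IMQ (0.0683), or bergapten replicate 1 (0.114), 2 (0.062) or 3 (0.112). The 2.48-fold fall against vaseline (log2 -1.31, SE 0.28, adjusted p = 0.00633) held in 9 of 9.

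Prox1, the lymphatic transcription factor (chromosome 1, 189850232 to 189902911, minus strand), did not follow Lyve1. It had 13.2, 13.2 and 13.3 CPM in vaseline, 12.2, 9.22 and 7.22 CPM in IMQ, and 12.9, 12.0 and 9.33 CPM with bergapten. The bergapten libraries overlapped those of IMQ, and the vaseline libraries were above both by a margin that was small for IMQ replicate 1 and bergapten replicate 1. The log2 fold change was -0.47 in IMQ (SE 0.20, adjusted p = 0.0764) and 0.26 with bergapten against IMQ (SE 0.20, interval -0.18 to 0.70, adjusted p = 0.474). Without IMQ replicate 1 the first was called (adjusted p = 0.0136). Prox1 is also known to be expressed in slow skeletal muscle. A list of 10 slow muscle genes summed to 389 to 401.1 CPM in vaseline, where 1 gene, Myh7, was at 0. The sum was 556.3 to 676.8 CPM in IMQ and 534.2 to 617.2 CPM with bergapten. The part of muscle in the Prox1 values was not tested.

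By FPKM, Vegfa was the most abundant of the 10 in vaseline skin (23.7 ± 1.31 FPKM, SD, n = 3), followed by Lyve1 (19.0 ± 2.80) and then Tek (13.4) and Kdr (11.5), whose ranges overlapped. Flt1 followed at 6.22 FPKM, and Angpt1, Flt4, Vegfc and Angpt2 lay between 5.07 and 3.54 FPKM with each range overlapping the next. Prox1 was lowest at 1.61 FPKM. In IMQ skin Flt1 (10.8 FPKM), Kdr (10.3) and Tek (10.3) overlapped, Vegfa (25.7) overlapped Lyve1 (22.4), and Angpt1 (1.32) overlapped Prox1 (1.21) at the bottom. With bergapten Vegfa stayed highest (18.7 FPKM), Kdr (10.8) came next, and Lyve1 (8.20) overlapped Tek (8.80).

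Other genes of the VEGF system moved in both directions in IMQ skin. Of 10 further ligands, co-receptors and partners, 5 rose and 3 fell, with a median log2 fold change of 0.35. Of all tested genes, 23.0% rose and 20.2% fell in this comparison, shares that stand beside the counts of every list below. The ligand genes Vegfb (log2 -0.47, SE 0.14, adjusted p = 0.0164) and Vegfd (log2 -0.83, SE 0.20, adjusted p = 0.00811) fell, as did the co-receptor Nrp1 (log2 -0.34, adjusted p = 0.00668). The co-receptor Nrp2 averaged 113.6 CPM in vaseline, 97.35 CPM in IMQ and 117.6 CPM with bergapten. It was called in IMQ against vaseline in 1 of 9 leave-one-out fits. Placental growth factor Pgf, a ligand of VEGFR1, had 1.78 to 3.67 CPM in vaseline and 2.08 to 5.44 CPM in IMQ, with no call (adjusted p = 0.451). Shb, an adaptor of VEGFR2, rose 2.87-fold (adjusted p = 2.92e-05) and Sema3a, a secreted Nrp1 ligand, rose 1.36-fold (adjusted p = 0.00731). Without any 1 of the vaseline libraries 3 genes rose in place of 5.

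With bergapten against IMQ, 0 genes of this VEGF list rose and 2 fell by edgeR, with a median of -0.28. Shb fell 1.83-fold (adjusted p = 0.0126) and Sema3a fell 1.46-fold (adjusted p = 0.0247), both genes that had risen in the same IMQ libraries. At an unadjusted p under 0.05, 0 rose and 5 fell, and DESeq2 and limma voom each called 0 and 3. Of all tested genes, 2.18% rose and 2.65% fell by edgeR in this comparison. DESeq2 called 5.39% lower, limma voom 3.03%, and 11.6% were lower at an unadjusted p under 0.05. In either direction DESeq2 called 1850 and limma voom 945 of the 18005 tested genes. The share that was higher at an unadjusted p under 0.05 is not given here. These shares and totals stand beside the counts of every list below. The count of 2 became 3 without IMQ replicate 3, 1 without bergapten replicate 2 and 0 without bergapten replicate 1 or 3.

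Of 11 further genes of the angiopoietin and Tie system, 2 rose and 6 fell in IMQ, with a median of -0.54. The list took in angiopoietin-like (Angptl) genes, which are related by sequence and are not counted as Tie2 ligands here. Angptl1 fell 6.18-fold (log2 -2.63, SE 0.28, adjusted p = 6.6e-05) and Angptl2 2.68-fold (adjusted p = 3.14e-06). Angpt4, the mouse gene for a further Tie2 ligand, fell 5.04-fold (log2 -2.33, SE 0.54, adjusted p = 0.00577). Its counts were low, at 42, 38 and 44 in vaseline and 13, 2 and 13 in IMQ. Dok2, an adaptor that binds activated Tie2, fell 2.01-fold (adjusted p = 0.00436). Tie1, the partner receptor of Tie2, rose 1.33-fold (log2 0.41, SE 0.11, adjusted p = 0.0153). Its values were 44.6, 49.6 and 49.0 CPM in vaseline, 71.5, 65.7 and 52.8 CPM in IMQ, and 51.7, 49.5 and 55.8 CPM with bergapten, opposite in direction to Tek in IMQ. The count of 6 stayed at 5 to 6 when 1 library was left out, whereas the 2 that rose became 0 without vaseline replicate 1 or IMQ replicate 1, 2 without IMQ replicate 3 and 1 without any other library.

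A share of the general endothelial genes rose in IMQ skin. Of 18 genes found in blood and lymphatic endothelium, 6 rose and 0 fell by edgeR in IMQ, beside 23.0% and 20.2% of all tested genes. The median of the 18 was 0.29. DESeq2 called 6 and 0, and limma voom 8 and 0. Of all 18005 tested genes they called 8021 and 7993 in either direction, where edgeR called 7783. The summed level was 715.4 to 824.2 CPM in vaseline, 932.3 to 1202 CPM in IMQ and 806.3 to 881.6 CPM with bergapten. Pecam1, an adhesion molecule of endothelial junctions, rose 1.93-fold (adjusted p = 0.000443) from 126, 150 and 144 CPM to 323, 262 and 225 CPM, and had 168, 204 and 206 CPM with bergapten. Emcn, a sialomucin of capillaries and veins, rose 2.18-fold (adjusted p = 9.65e-05). VE-cadherin, Cdh5, was not called (log2 0.26, SE 0.12, adjusted p = 0.0921). The 6 became 2 without vaseline replicate 1 or IMQ replicate 1 and 3 without vaseline replicate 3, and 0 of the 18 were at 0 in any group.

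With bergapten against IMQ the median of these 18 genes was -0.27, and 1 fell and 0 rose by edgeR, where DESeq2 called 5 lower and 0 higher, limma voom 4 and 0, and an unadjusted p under 0.05 gave 9 and 0. The gene that fell was Emcn (log2 -0.57, SE 0.13, adjusted p = 0.0369), from 41.4, 40.2 and 34.9 CPM to 27.1, 29.8 and 21.8 CPM. The number that fell was 8 without IMQ replicate 3, 1 without bergapten replicate 2 and 0 without any other library.

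Because the general endothelial level differed between groups, each member was also expressed relative to it, as log2 CPM minus the mean log2 CPM of the 18 genes in the same library. That level, as a geometric mean, was 31.2 ± 1.81 CPM in vaseline, 38.1 ± 3.86 CPM in IMQ and 31.7 ± 0.551 CPM with bergapten (SD, n = 3). A gene with unchanged CPM therefore came out lower in IMQ than in vaseline, and higher with bergapten than in IMQ. The share of all tested genes without overlap on this scale is not given here. Against these 18 genes Flt1 differed between IMQ and vaseline by 0.45 (SE 0.08) and Angpt2 by 0.31 (SE 0.11), both without overlap. Kdr was lower by a difference of -0.51 (SE 0.07), Tek by -0.71 (SE 0.11) and Prox1 by -0.79 (SE 0.15), again without overlap. Flt4 was at 0.03 and its groups overlapped. With bergapten against IMQ, Flt1 differed by -0.44 (SE 0.07) and Lyve1 by -1.16 (SE 0.31) without overlap, while Tek was at -0.01. Kdr was higher by 0.28 (SE 0.06), Prox1 by 0.54 (SE 0.21) and Angpt1 by 0.63 (SE 0.32), each without overlap.

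The choice of endothelial reference changed the picture for Flt1 and Angpt2. Against Pecam1 and Cdh5 alone, whose geometric mean was 118 ± 7.87 CPM in vaseline, 180 ± 31.7 CPM in IMQ and 132 ± 10.2 CPM with bergapten (SD, n = 3), the groups overlapped for both genes in every comparison. Flt1 then differed between IMQ and vaseline by 0.14 (SE 0.12) and between bergapten and IMQ by -0.27 (SE 0.12), and Angpt2 by 0.01 (SE 0.16) and 0.02 (SE 0.14). Lower in IMQ than in vaseline without overlap under both references were Kdr (-0.81, SE 0.14, against Pecam1 and Cdh5), Tek (-1.02, SE 0.16) and Prox1 (-1.10, SE 0.09). The same held for Angpt1 (-2.67, SE 0.32) and Vegfa (-0.55, SE 0.16). The CPM of Vegfa itself was not called (log2 0.05, edgeR adjusted p = 0.756), and its lower relative value goes with the higher reference in IMQ. Both genes have main sources outside the endothelium, so an endothelial reference does not stand for the cells that make them. With bergapten against IMQ, Lyve1 was lower without overlap under both references (-0.98, SE 0.24). Kdr (0.45, SE 0.14), Prox1 (0.71, SE 0.21) and Angpt1 (0.81, SE 0.37) were higher in that comparison, also without overlap under both. Within the reference pair, Pecam1 averaged 140 CPM in vaseline, 270 CPM in IMQ and 193 CPM with bergapten, and Cdh5 99.9, 120 and 90.5 CPM. Neutrophil genes summed to 137 to 168.7 CPM in vaseline, 3963 to 9736 CPM in IMQ and 2825 to 6787 CPM with bergapten. The part of leukocytes in the Pecam1 level, and so in this reference, was not tested. All relative values are descriptions, with no test.

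**Figure D4:**
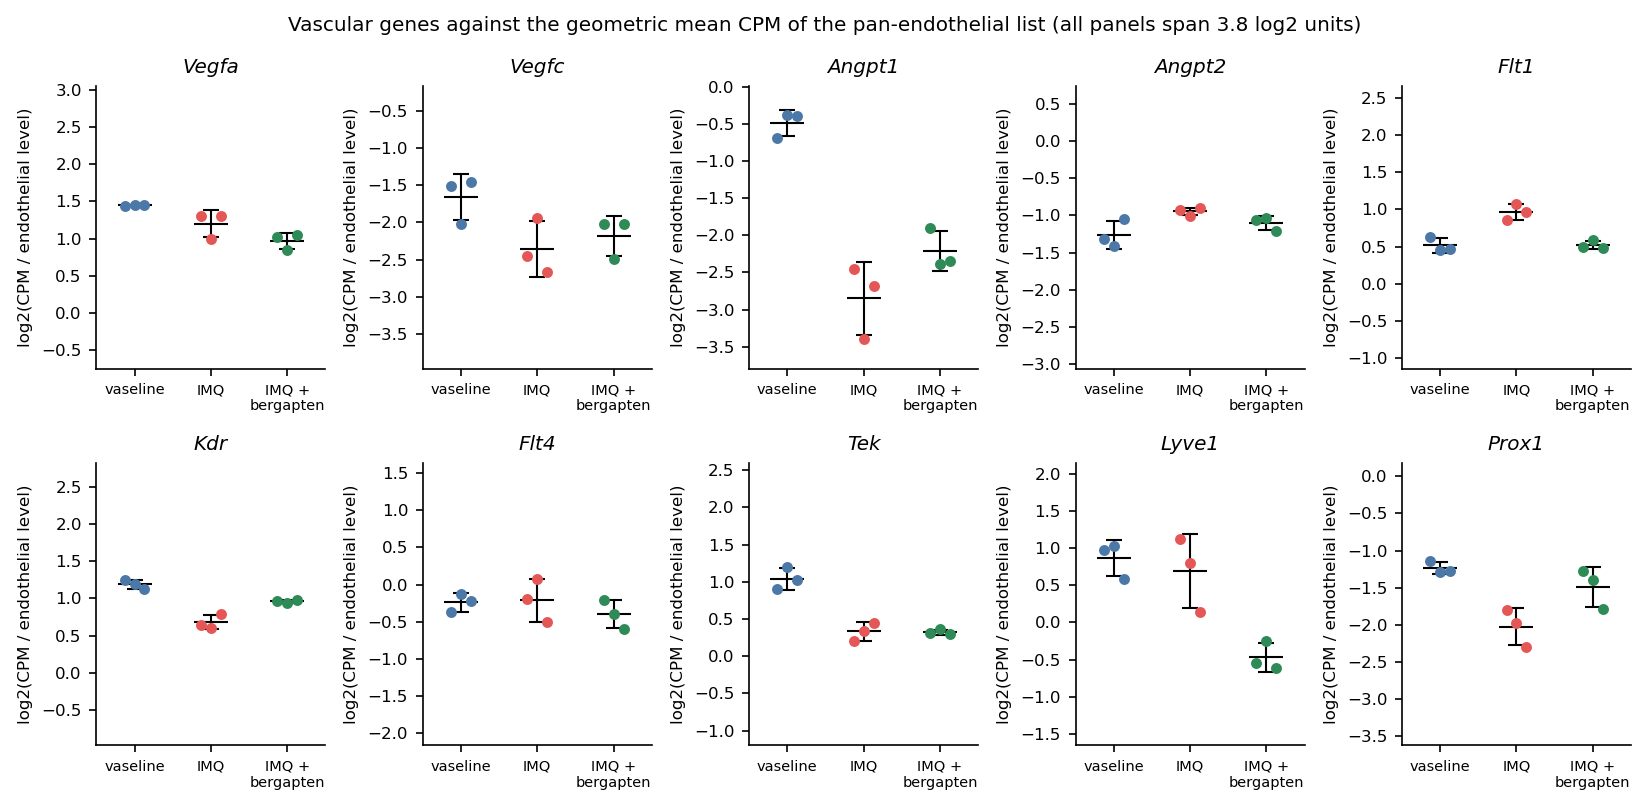
Log2 of the CPM of each gene over the geometric mean CPM of 18 endothelial genes in the same library (y axes span 3.8 log2 units in every panel). Points are libraries, bars and whiskers the group mean and SD (n = 3). On this reference Flt1 is highest in IMQ, which does not hold against Pecam1 and Cdh5 alone, and Kdr, Tek and Prox1 lie lower in IMQ than in vaseline.

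Mural cells wrap vessels and are a known source of Angpt1, and most of their marker genes fell in IMQ skin. Of 10 tested mural genes, 8 fell and 1 rose, with a median of -0.69, and the count of 8 stayed at 7 to 8 when 1 library was left out. The summed level of the 11 genes in that list was 1956 to 2118 CPM in vaseline, 1467 to 1471 CPM in IMQ and 1319 to 1414 CPM with bergapten, and 0 of the 11 were at 0 in a group. A large part of this sum was Des, which averaged 911 CPM in vaseline, 744 CPM in IMQ and 501 CPM with bergapten. The part of skeletal muscle in Des was not tested. Smooth muscle actin Acta2 fell 2.47-fold (adjusted p = 1.13e-05) and the pericyte channel genes Kcnj8 1.98-fold (adjusted p = 4.9e-05) and Abcc9 1.92-fold (adjusted p = 6.96e-05). Fibroblast genes fell more, with 9 of 10 lower, 1 higher and a median of -2.05. Their summed level was 93300 to 100400 CPM in vaseline, 8601 to 19800 CPM in IMQ and 23590 to 30390 CPM with bergapten. The part of these cell types in the fall of Angpt1 was not tested.

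With bergapten against IMQ, 1 of the 10 tested mural genes rose and 1 fell by edgeR, with a median of 0.10, while DESeq2 called 2 and 1, limma voom 1 and 1, and an unadjusted p under 0.05 gave 3 and 1. Des, the intermediate filament desmin, fell (log2 -0.57, SE 0.10, adjusted p = 0.0149), from 769, 723 and 740 CPM to 498, 550 and 455 CPM, and this call was lost without bergapten replicate 1 or 3. Whether this fall lay in mural cells or in skeletal muscle was not tested. The gene that rose was Rgs5, a regulator of G protein signalling typical of pericytes. It read 158, 184 and 183 CPM in vaseline, 116, 125 and 132 CPM in IMQ, and 205, 217 and 211 CPM with bergapten, with no overlap between groups. It fell in IMQ (log2 -0.49, SE 0.09, adjusted p = 0.00125) and rose with bergapten against IMQ (log2 0.76, SE 0.09, adjusted p = 0.00293). Both calls of Rgs5 held in 9 of 9 fits with 1 library left out.

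Tip cell genes, which mark the leading endothelial cells of a sprout, gave 2 that rose and 5 that fell of 12 in IMQ, with a median of -0.43. Their summed level was 549.6 to 726.3 CPM in vaseline, 579.3 to 988.5 CPM in IMQ and 397.1 to 457.7 CPM with bergapten. Apelin, Apln, was at 6.69, 7.13 and 7.37 CPM in vaseline, 1.82, 0.809 and 1.42 CPM in IMQ, and 6.45, 4.23 and 6.68 CPM with bergapten. All IMQ libraries were below all others. It fell 5.20-fold in IMQ (log2 -2.38, SE 0.30, adjusted p = 0.000158) and rose 4.26-fold with bergapten against IMQ (log2 2.09, SE 0.30, adjusted p = 0.00717), and both calls held in 9 of 9 leave-one-out fits. Its receptor gene Aplnr had a log2 fold change of -0.89 in IMQ (adjusted p = 0.0198), although the groups overlapped, and 1.12 with bergapten (adjusted p = 0.042). Those calls held in 6 of 9 and in 1 of 9 fits. With bergapten against IMQ, 2 of the 12 genes rose and 1 fell. The 2 that rose became 1 without any vaseline library, IMQ replicate 2 or any bergapten library. The 1 that fell became 2 without IMQ replicate 3 and 0 without IMQ replicate 2 or bergapten replicate 1 or 3. The 2 that rose in IMQ became 4 without IMQ replicate 3.

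Lymphatic genes other than Lyve1 and Prox1 showed no common direction. Of 11 tested in IMQ, 2 rose and 1 fell, with a median of 0.28, and the summed level was 376.6 to 385.2 CPM in vaseline, 296.6 to 343.5 CPM in IMQ and 310.3 to 348.5 CPM with bergapten, with 0 of the 12 genes in the list at 0. The 2 that rose became 1 without vaseline replicate 1 or 3, IMQ replicate 1 or any bergapten library. Ccl21a, a chemokine of lymphatic endothelium with near-identical gene copies that make its count uncertain, fell 2.36-fold in IMQ (adjusted p = 0.000144). It had 170, 151 and 160 CPM in vaseline, 70.7, 52.4 and 80.6 CPM in IMQ, and 120, 110 and 93.6 CPM with bergapten. Its rise with bergapten (log2 0.67, SE 0.15, adjusted p = 0.0371) held in 2 of 9 leave-one-out fits.

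Stab2, a hyaluronan receptor like Lyve1, rose 2.54-fold in IMQ (adjusted p = 0.00989) and fell 3.23-fold with bergapten against IMQ (log2 -1.69, SE 0.35, adjusted p = 0.0279), the second call holding in 5 of 9 fits. Its level was low, at 0.658, 1.11 and 1.19 CPM in vaseline, 2.44, 3.13 and 1.93 CPM in IMQ, and 1.02, 0.596 and 0.714 CPM with bergapten. Mmrn1, a secreted protein of lymphatic endothelium, was lower with bergapten than in IMQ without a call (log2 -0.62, SE 0.16, adjusted p = 0.054).

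Since macrophages can carry Lyve1, markers of resident macrophages were set beside it. The summed level of 11 such genes overlapped in all groups, at 1876 to 2326 CPM in vaseline, 1687 to 2451 CPM in IMQ and 1726 to 2108 CPM with bergapten, with 0 of the 11 at 0 in a group. With bergapten against IMQ, 3 of the 11 fell and 0 rose by edgeR, with a median of 0.05. An unadjusted p under 0.05 gave 3 and 2, DESeq2 3 and 2, and limma voom 3 and 0. The genes that fell were Cd163, a haemoglobin scavenger receptor (log2 -0.96, SE 0.20, adjusted p = 0.0355), F13a1, a coagulation factor subunit (log2 -0.85, SE 0.18, adjusted p = 0.0324), and Gas6, a ligand of the TAM receptor kinases (log2 -0.75, SE 0.12, adjusted p = 0.0115). Cd163 read 244, 241 and 219 CPM in vaseline, 441, 337 and 269 CPM in IMQ, and 166, 231 and 144 CPM with bergapten. The other markers were not called by edgeR in this comparison and went in different directions. Adgre1, the gene for the macrophage antigen F4/80, had 336, 140 and 142 CPM in IMQ and 446, 567 and 436 CPM with bergapten, higher without overlap and without a call (log2 1.23, SE 0.33, adjusted p = 0.078), except when IMQ replicate 1 was left out (0.00144). Timd4 (log2 -3.60) and Cd209d (-2.42) fell in IMQ against vaseline (adjusted p = 0.000152 and 0.000714), as did Folr2 (-1.70, adjusted p = 0.0114), and with bergapten against IMQ these 3 had overlapping groups and log2 fold changes of 0.05, 0.33 and -0.75. The 3 genes that fell with bergapten became 2 without vaseline replicate 2, IMQ replicate 1 or bergapten replicate 2, 1 without vaseline replicate 1 or 3, IMQ replicate 2 or bergapten replicate 1, and 0 without bergapten replicate 3. The part of macrophages in the lower Lyve1 was not tested.

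Hypoxia is a known inducer of Vegfa, and genes of the hypoxia response were mostly higher in IMQ. Of 15, 9 rose and 1 fell, with a median of 0.45, and 6 to 9 rose when 1 library was left out. Slc2a1, a glucose transporter, rose 4.74-fold (adjusted p = 2.51e-05) and Hif1a 3.57-fold (adjusted p = 4.72e-05), while Vegfa in the same libraries had no call. Bnip3, a mitochondrial protein and HIF-1 target, was at 37.0, 32.0 and 37.0 CPM in vaseline, 71.8, 114 and 63.5 CPM in IMQ, and 20.6, 29.3 and 27.2 CPM with bergapten. It rose in IMQ (log2 1.23, SE 0.22, adjusted p = 0.00167) and fell with bergapten against IMQ (log2 -1.69, SE 0.22, adjusted p = 0.00667). Ndrg1, a further hypoxia-induced gene, fell 1.67-fold in the second comparison (adjusted p = 0.0137). There, 2 of the 15 fell and 0 rose by edgeR, DESeq2 called 3 and 0, limma voom 2 and 0, and an unadjusted p under 0.05 gave 5 and 1. The 2 became 1 without bergapten replicate 1 and 3 without IMQ replicate 2 or 3. Keratinocytes are a main source of VEGF-A in skin, and the summed level of 12 keratinocyte genes was 8791 to 9500 CPM in vaseline, 25450 to 28880 CPM in IMQ and 28510 to 29860 CPM with bergapten, with 0 of the 12 at 0 in a group. The part of the keratinocyte share in the Vegfa values was not tested.

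**Figure D5:**
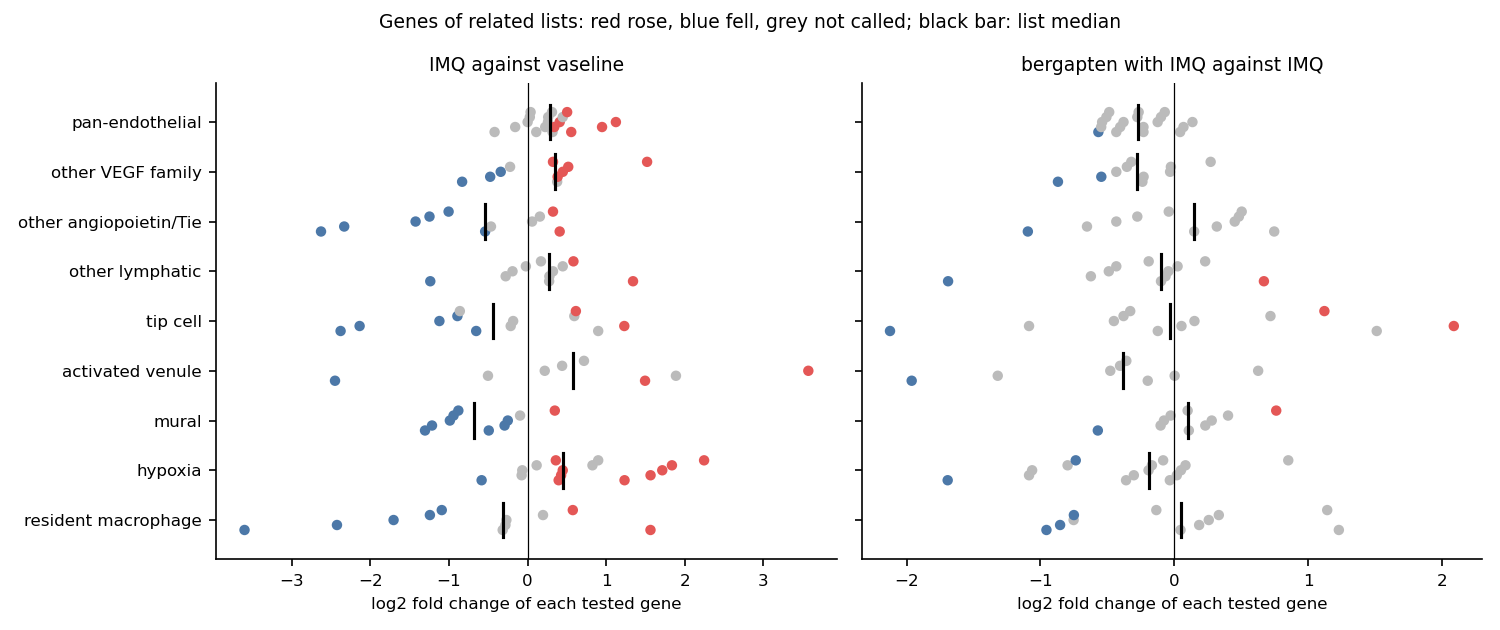
Log2 fold changes (x axis) of every tested gene in 9 related lists, for IMQ against vaseline (left) and bergapten with IMQ against IMQ (right). Red points rose, blue points fell, grey points were not called, and black bars are list medians. In the left panel the mural median lies at -0.69 and the hypoxia median at 0.45.

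Genes whose levels ran most like those of single members over the 9 libraries were ranked by the root mean square difference of log2 CPM, each gene centred on its own mean, among 14103 genes. For Angpt1 the nearest was Nova1, an RNA-binding protein, with a difference of 0.11 where Angpt1 itself varied by 0.95 on that scale, followed by Mmp27 (0.18). For Lyve1, which varied by 0.72, the nearest were Flnc, a filamin of muscle (0.14), and Ccl6, a chemokine (0.15). Next came Ccl9 (0.161), Myo18b (0.175) and Mustn1 (0.187). Flnc averaged 177 CPM in vaseline, 170 CPM in IMQ and 61.4 CPM with bergapten, and Ccl6 169, 205 and 62.6 CPM. Fast muscle markers summed to 17580 to 18800 CPM in vaseline, 4614 to 6528 CPM in IMQ and 4514 to 4843 CPM with bergapten. In IMQ 1 gene of the 12, Tnnc2, was at 0. With bergapten against IMQ, 2 of the 11 tested fell and 1 rose by edgeR. Myh4 averaged 1369 CPM in IMQ and 414 CPM with bergapten, Tnni2 393 and 246 CPM, and Casq1 9.55 and 58.5 CPM. The part of muscle in the Lyve1 values was not tested. For Vegfa, which varied by 0.26, the nearest was the complement gene C4b (0.10), with 581, 610 and 439 CPM in the 3 groups. For Angpt2, which varied by 0.28, it was the glucose transporter Slc2a3 (0.08), with 7.22, 10.8 and 7.73 CPM. For Kdr, which varied by 0.12, it was Jtb (0.05), with 60.0, 54.0 and 53.5 CPM.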

How the data were processed

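Total RNA of back skin was sequenced in 9 libraries, and groups were taken from the treatment labels. Per the labels' protocols, RNAiso Plus was used for extraction, and 1.3 µg went into each library. Trimmomatic, HISAT2 and HTSeq 0.6.0 and the build GRCm39 are named in the submitters' processing notes. Raw counts of whole reads per gene were deposited in 1 table, which also gives the authors' FPKM. The gene length that the FPKM values imply is the same in every library but differs from the table's own length column, and its origin is not given in the sources used here. The deposited quality sheet gives GC, Q20 and Q30 as percent and a mean quality score per library. Of 56861 rows 2 name no gene and were left out.

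A model with 1 mean per group was fitted to the counts of all 9 libraries with edgeR 4.0.16 in R 4.3.3 (robust quasi-likelihood F test, TMM, filterByExpr at its count of 10 and total of 15). Two-sided p-values received Benjamini-Hochberg adjustment over 18005 genes, and a gene was called to rise or fall at an adjusted p under 0.05. The standard error is the absolute log2 fold change over the square root of F. The procedure was tested on simulated counts. Ratios between genes were taken from FPKM, and CPM values were scaled by TMM. Alternatives were RLE factors, DESeq2 1.42.0, voom with quality weights in limma 3.58.1, no filter, a mean of at least 1 CPM, only the groups compared, the replicate number as a block, and each library left out in turn. Counts of called list genes without 1 library were added after the data were seen. No library pair was identical, as counts differed within groups by 9.92 to 72.32 times the counting variance. The range of counts per gene limits precision. Intervals give the uncertainty of a difference between groups, with the spread of each gene estimated over all 3 groups together.

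The 10 genes and the gene lists were chosen with earlier results of these data known. All 10 were named. From each list up to 4 genes with the smallest unadjusted p in each of the first 2 comparisons could be named, and Pecam1, Cdh5, Pgf, Vegfb, Vegfd, Nrp1, Nrp2 and Tie1 in any case. Nearest patterns were sought for Vegfa, Kdr, Angpt1, Angpt2 and Lyve1 among genes with a mean of at least 1 CPM. RefSeq promoter windows were matched by symbol for 7 of the 10 genes, and those of Angpt1, Angpt2 and Lyve1 were not analysed here. Their build, GRCm38.p6, is not that of the files, so their coordinates were not joined to the gene coordinates.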

Additional observations from a re-analysis of the deposited data

How the results depend on the processing

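The calls of Flt1, Tek, Angpt1 and Angpt2 in IMQ against vaseline, of Flt1 in bergapten against IMQ, and of Tek, Angpt1 and Lyve1 in bergapten against vaseline held in 9 of 9 fits that left out 1 library and in 7 of 7 other settings. Lyve1 in bergapten against IMQ was called in 4 of 9 and 5 of 7 (adjusted p = 0.0776 without a filter and 0.071 with only the groups compared). With 1 library left out, log2 fold changes changed sign for Vegfa (-0.115 to 0.182) and Lyve1 (-0.186 to 0.417) in IMQ against vaseline, for Vegfc (-0.289 to 0.089) and Kdr (-0.051 to 0.075) in bergapten against IMQ, and for Flt1 (-0.036 to 0.036) in bergapten against vaseline. Kdr in bergapten against IMQ was also -0.037 by limma voom. All were uncalled, and the cause was not tested.

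The number of all genes called in bergapten against IMQ, 869, became 1850 by DESeq2, 130 with only the groups compared, and 139 to 1711 with 1 library left out. Of the 10 genes, 2 became 1 with only the groups compared and 1 to 3 with 1 library left out. In the other comparisons 4 to 6 and 3 to 5 of the 10 were called with 1 library left out. The labels name no pairing by replicate number. Deviations from the group mean had correlations of -0.091 to 0.176 between same-numbered libraries, and 1 of 9 pairs exceeded 0.1. Between libraries of other numbers they were -0.175 to 0.115, and 1 of 18 pairs exceeded 0.1. With 3 libraries a group these values cannot settle whether the numbers pair the libraries. With the replicate block 489 genes were called in bergapten against IMQ, and Prox1 passed in IMQ against vaseline (adjusted p = 0.0471).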
